A study of Mus musculus with 18 samples.

Results

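Interferon-stimulated genes and genes of antigen presentation on MHC class I were followed through the RNA-seq libraries of mouse marrow-derived mesenchymal stem cells (MSC). The set holds 41 genes, taken from a list of symbols and matched to the rows of a table of 54347 genes. All 41 had a row. They were sorted by role into the IFIT family (4 genes), the ISG15 pathway (2), transcription factors of the pathway (4), the OAS family (4), RNA sensors (3), antiviral effectors (12), genes of ADP-ribosylation (3), guanylate-binding proteins (3) and antigen presentation (6). The MSC, adherent marrow progenitors with the capacity to form adipocytes or osteoblasts, came from male C57BL/6J mice, and per the methods of the study the marrow of several mice had been used to start the culture. There were 18 libraries in 6 groups of 3, made from separate preparations. Untransfected cells were left as control, or received CK666, which inhibits the Arp2/3 complex and so the branching of actin filaments, or cytochalasin D (CytoD), which caps actin filaments. Transfected cells received a control siRNA (siControl, whose treatment is labelled siRNA mock), an siRNA against Arp4 (siArp4), or the Arp4 siRNA with CK666 (siArp4+CK666). Arp4, the product of Actl6a, is an actin-related protein of several chromatin remodelling complexes. Per the study's methods, transfection meant a lipid reagent and a night in serum-free medium, and whether both sets of cells were grown and sequenced side by side is not stated in the sources used here. Transfected cells without siRNA, and siControl with CK666, were not analysed here.

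Type I interferons bind the receptor IFNAR, after which the kinases JAK1 and TYK2 activate a complex that holds STAT2 and IRF9, enters the nucleus and switches on genes whose promoters carry an interferon-stimulated response element (ISRE). Interferon gamma acts mainly through another site, GAS, and through IRF1. Foreign RNA or DNA in the cell is a usual trigger of interferon production, and RIG-I (Ddx58) and MDA5 (Ifih1) are sensors of the RNA. The genes that are switched on block viral translation, budding and replication, and also raise the immunoproteasome, the peptide transporter TAP and the MHC class I molecules by which a cell shows its peptides to T cells.

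Values below are normalized counts, which are estimated counts per gene divided by a size factor of the library, set over all 18 libraries, unless another scale is named. Changes are log2 fold changes from DESeq2 with their standard error after the ± sign. A call, higher or lower, needed an absolute change above 1 on the log2 scale together with a p below 0.01 after Benjamini-Hochberg adjustment over all genes tested. Library totals lay between 18075610 and 24733212 counts, and size factors between 0.774 (siControl replicate 2) and 1.197 (siControl replicate 1). Actl6a read 717, 1158 and 842 in siControl. With the Arp4 siRNA it read 50.1, 58.6 and 19.5, and with CK666 added 9.47, 23.2 and 18.4, so the targeted gene went with the labels. Of the fixed markers of MSC, Pdgfra, Pdgfrb, Cd44, Itgb1, Col1a1 and Cxcl12 had group means from 257 normalized counts (Cd44 in siArp4+CK666) upward, while Thy1 was at 0 in all 18 libraries and Nt5e had group means of at most 2.94. The study's reporting summary describes the MSC as a primary line made in its laboratory from the marrow of these mice. The p-values therefore measure the spread between preparations of that line, not between mice.

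The regions around the transcription starts of the genes are shown first, because ISRE letters there are what many of the genes share. Windows from RefSeq (build GRCm38.p6) ran from 250 bases before to 50 after an annotated start, and 31 of the 41 genes had one. The ISRE core was searched as GAAANNGAAA on both strands (TTTCNNTTTC when read from the other), and GAS as TTCNNNGAA, which reads the same on both. At least 1 ISRE core stood in the windows of 16 of the 31 genes (51.6%), against 3.99% of 27025 genes with a window. A GAS stood in those of 8 (25.8%), against 9.55% of all genes, and 1 of them, in Bst2, overlapped an ISRE. In the windows printed here, 5′ to 3′ along the gene, capitals mark every ISRE core. Isg15, Ifit1, Rsad2 and Gbp2 stand for the genes with a match, and Tap1 and Psmb8 for those of antigen presentation without one. Isg15 (chr4:156200769-156201068, minus strand) carried 3 overlapping cores, Ifit1 (chr19:34640639-34640938, plus strand) 2, and Rsad2 (chr12:26456403-26456702, minus strand) and Gbp2 (chr3:142620413-142620712, plus strand) 1 each. No core was found in Tap1 (chr17:34187306-34187605, plus strand) or Psmb8 (chr17:34197945-34198244, plus strand), and the letters say nothing of elements outside the window.
Isg15: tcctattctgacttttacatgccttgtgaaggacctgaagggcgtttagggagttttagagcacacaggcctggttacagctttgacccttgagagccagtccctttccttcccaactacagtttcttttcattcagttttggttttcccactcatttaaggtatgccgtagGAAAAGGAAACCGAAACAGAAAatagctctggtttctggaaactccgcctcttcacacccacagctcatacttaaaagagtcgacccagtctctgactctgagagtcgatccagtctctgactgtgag
Ifit1: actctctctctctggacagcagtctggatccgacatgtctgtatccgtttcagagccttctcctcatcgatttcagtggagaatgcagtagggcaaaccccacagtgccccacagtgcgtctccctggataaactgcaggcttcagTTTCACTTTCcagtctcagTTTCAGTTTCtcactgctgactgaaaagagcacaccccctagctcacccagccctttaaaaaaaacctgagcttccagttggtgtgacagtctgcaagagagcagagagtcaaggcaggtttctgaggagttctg
Rsad2: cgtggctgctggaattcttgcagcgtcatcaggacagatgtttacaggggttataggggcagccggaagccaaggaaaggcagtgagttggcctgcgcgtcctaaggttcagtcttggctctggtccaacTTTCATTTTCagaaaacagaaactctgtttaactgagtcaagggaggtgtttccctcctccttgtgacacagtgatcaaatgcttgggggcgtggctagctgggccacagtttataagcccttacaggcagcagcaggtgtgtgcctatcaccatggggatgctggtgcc
Gbp2: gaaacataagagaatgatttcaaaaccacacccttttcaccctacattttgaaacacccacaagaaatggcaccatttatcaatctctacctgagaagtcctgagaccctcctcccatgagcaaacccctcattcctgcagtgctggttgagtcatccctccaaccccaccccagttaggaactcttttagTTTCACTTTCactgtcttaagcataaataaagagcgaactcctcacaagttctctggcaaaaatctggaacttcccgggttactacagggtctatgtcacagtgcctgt
Tap1: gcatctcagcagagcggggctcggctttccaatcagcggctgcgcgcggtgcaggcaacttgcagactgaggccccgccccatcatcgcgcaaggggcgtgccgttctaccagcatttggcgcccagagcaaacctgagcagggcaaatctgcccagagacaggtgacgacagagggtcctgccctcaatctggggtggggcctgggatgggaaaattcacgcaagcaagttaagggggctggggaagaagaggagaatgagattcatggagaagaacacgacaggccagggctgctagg
Psmb8: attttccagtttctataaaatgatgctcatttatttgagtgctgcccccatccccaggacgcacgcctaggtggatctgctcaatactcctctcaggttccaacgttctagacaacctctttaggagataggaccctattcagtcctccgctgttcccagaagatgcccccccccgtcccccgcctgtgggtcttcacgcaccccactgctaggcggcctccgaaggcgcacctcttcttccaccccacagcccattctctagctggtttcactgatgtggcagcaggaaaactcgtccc

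Some windows cover each other or nearly repeat. Tap1 and Psmb9 lie head to head on opposite strands of chromosome 17 and their windows share 275 bases. The windows of Ifit3 and Ifit3b, neighbouring copies on chromosome 19, aligned with 259 identical positions, 1 mismatch and an offset, and both held 2 cores. The ISRE cores of Isg15 began 78, 72 and 66 bases before the start, those of Ifit1 104 and 85 bases before it, that of Gbp2 59 and that of Rsad2 120 bases before it.

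Levels between genes were compared per kilobase of exon. B2m, the light chain of every MHC class I molecule, stood far above the rest in all groups, with 9805 normalized counts per kb in control and 17413 in siControl. The next in siControl were the heavy chain H2-D1 (1625 per kb), Ifi27 (1315 per kb), Bst2 (784 per kb) and H2-K1 (757 per kb). Irf1 followed at 543 per kb and Psmb8 at 426 per kb. The order was not that of control cells, where Psmb8 (6.99 per kb) and Psmb9 (5.91 per kb) were far lower, and Ifit2 (227 per kb) and Eif2ak2 (183 per kb) were above Irf1 (114 per kb). At the other end, 5 antiviral genes were close to undetected in every group. Oas2, a synthase of the oligoadenylates that activate RNase L, had a count in 1 of 18 libraries, siArp4+CK666 replicate 3, and Mx1, a GTPase that blocks viral replication, in 1, CytoD replicate 1. Mx2, Oas1a and Oas3 did not pass 3.46 normalized counts in any library. Where a library had no count, up to 3 remained possible, which is 2.89 normalized counts at the mean size factor of the control libraries, so expression below that could not be seen.

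**Figure D1:**
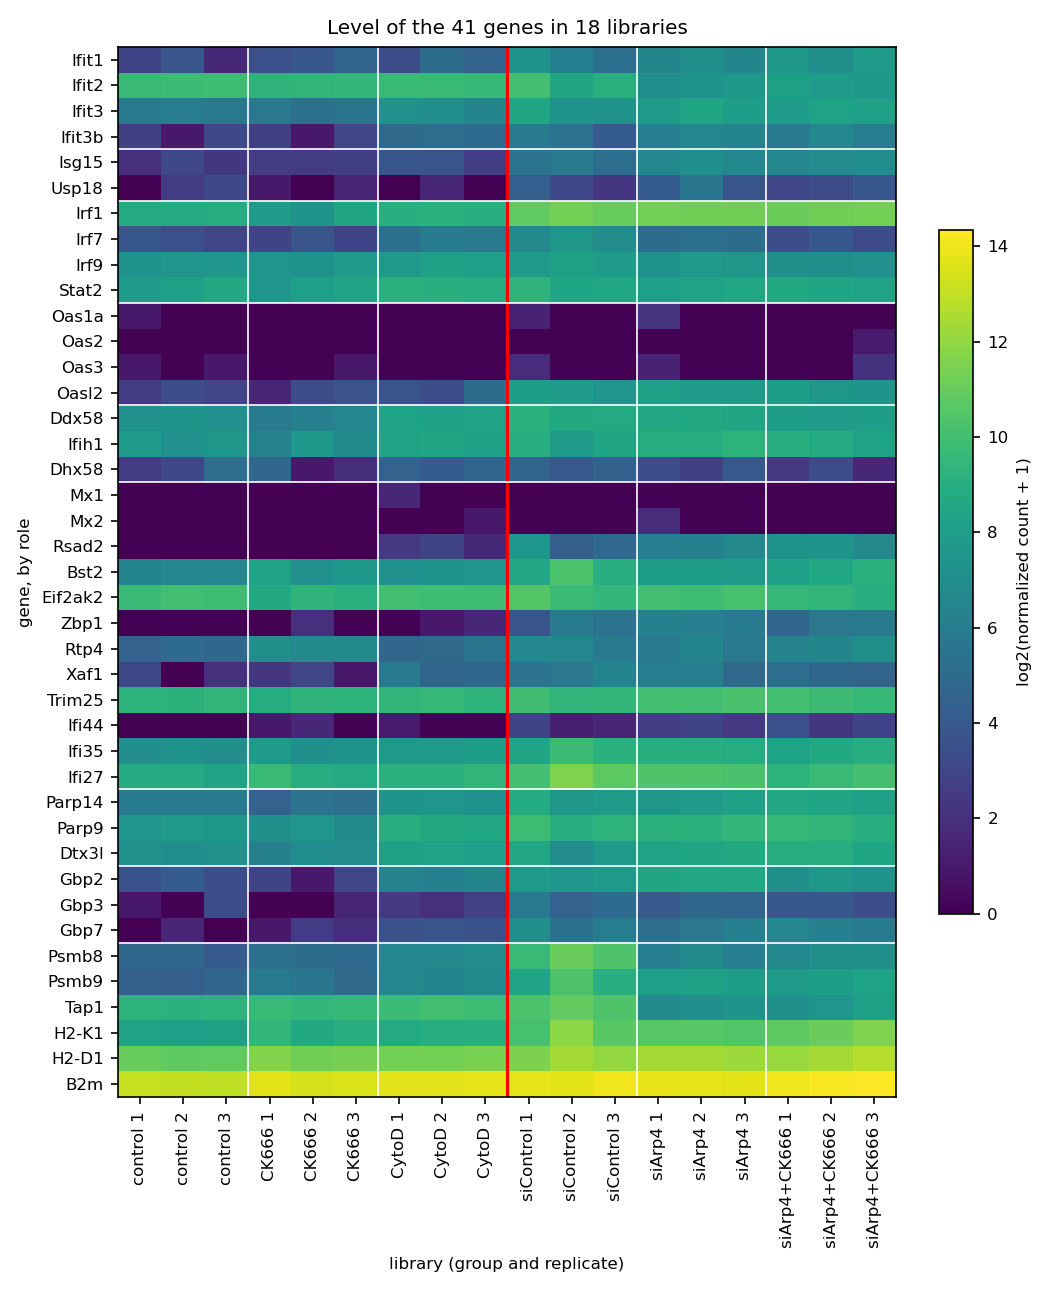
Heat map of log2(normalized count + 1) for the 41 genes (rows, grouped by role with white lines) in 18 libraries (columns, 3 a group); the red line parts untransfected from transfected cells. Rsad2, Zbp1, Oasl2, Gbp7, Isg15 and Ifit1 are dark to the left of the red line and brighter to its right, while Mx1, Mx2, Oas1a, Oas2 and Oas3 stay dark throughout.

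The comparison of siControl with control asks how cells that went through transfection with a non-targeting siRNA differed from cells that did not. Of the 41 genes, 25 were called higher and 0 lower. Among all genes tested, 14.1% were called higher and 10.1% lower. Beside the 0 called lower by DESeq2, 0 had an unadjusted p under 0.05 in that direction, and edgeR called 0. There were 35 members with an adjusted p, of which 34 had an estimate above 0, and their median log2 fold change was 2.23, against 0.04 over all genes tested. The median was 2.23 also with Rsad2 and Zbp1, which had no control count, set at their lower bounds. In 29 of the 35 every siControl library was above every control library, against 24.9% of all genes tested. Transfection, the serum-free night and any difference between the sets of cultures cannot be told apart here, and in bulk RNA a larger share of responding cells cannot be told from more RNA in each cell. The share of counts from mitochondrial genes was 1.434 to 1.818% in control and 1.301 to 2.655% in siControl, and its part in the result was not tested.

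**Figure D2:**
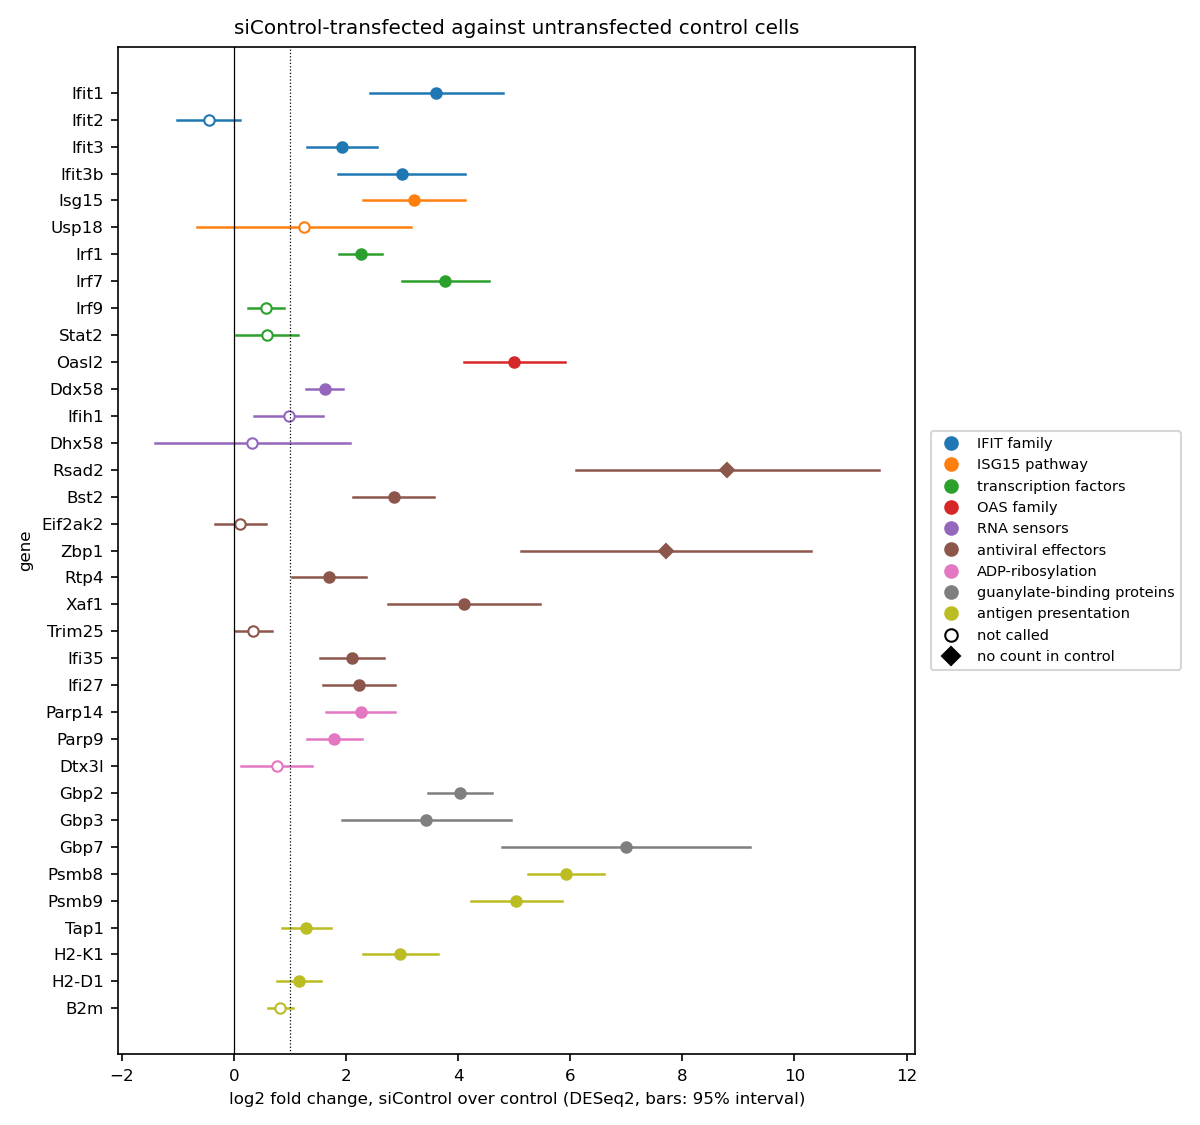
Log2 fold change of siControl over control for the 35 genes with an adjusted p (DESeq2, 3 libraries a group, bars are 95% intervals), coloured by role; filled symbols were called, and diamonds mark genes with no count in control, whose estimate depends on the fit. All estimates but that of Ifit2 (-0.45) lie to the right of 0.

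In the IFIT family, whose proteins bind viral RNA and hold back its translation, 3 of 4 genes rose. Ifit1 read 6.57, 13.3 and 2.02 in control and 159, 72.4 and 37.4 in siControl, with no overlap and a log2 fold change of 3.61 ± 0.60 (adjusted p = 1.73e-08). Ifit3, which steadies IFIT1 on its RNA, went from 56.3, 65.5 and 52.5 to 344, 159 and 156, and its log2 fold change was 1.92 ± 0.32 (adjusted p = 1.12e-08). Every siControl library lay above every control library for both, and replicate 1 was the highest of the siControl libraries for both. Ifit3b rose by 2.99, but 61.8% of the 31-base words of Ifit3 transcripts also occur in Ifit3b, so the split between the pair is uncertain. Ifit2 was the exception in the whole set, at 809.7, 922 and 949 in control and 1054, 358 and 546 in siControl. Its groups overlapped and its log2 fold change of -0.45 ± 0.29 did not pass (adjusted p = 0.182).

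Isg15, a ubiquitin-like protein that is attached to other proteins, was at 2.81, 7.59 and 4.04 in control libraries and 43.4, 55.6 and 35.6 in siControl. Its log2 fold change was 3.20 ± 0.46 (adjusted p = 6.56e-11), and the groups were well apart. Usp18, the protease that removes ISG15 and dampens the interferon receptor, read 0, 4.75 and 8.07 in control against 18.4, 7.76 and 3.74 in siControl, and at these low counts its difference of 1.24 ± 0.97 was not called (adjusted p = 0.285).

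Of the transcription factors, Irf1 and Irf7 rose. Irf1, the factor through which interferon gamma reaches many of its targets, read 451, 437 and 467 in control and 1837, 2579 and 2066 in siControl. The lowest siControl library was far above the highest control library, and the log2 fold change was 2.26 ± 0.20 (adjusted p = 4.31e-29). Irf7, the factor that amplifies interferon alpha production, went from 14.1, 10.4 and 7.06 to 108, 193 and 135, and its log2 fold change was 3.77 ± 0.39 (adjusted p = 3.06e-20). Its exons overlap those of Phrf1, a gene with a mean of 981 normalized counts, and the libraries are unstranded, so reads from the shared stretch cannot be assigned by strand, although no more than 0.361% of the 31-base words of Irf7 occur in Phrf1. Irf9 and Stat2, members of the complex that binds the ISRE, were not called. Irf9 was at 158, 179 and 184 in control and at 242, 287 and 246 in siControl, and its log2 fold change of 0.57 ± 0.16 passed the adjusted p (0.00155) but not the fold minimum. It overlaps Rnf31 (mean 418.5), which holds 1.69% of its 31-base words. Stat2 was at 241, 282 and 396 in control and at 653, 343 and 382 in siControl, which overlapped, and the log2 fold change was 0.59 ± 0.28 (adjusted p = 0.0655).

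Oasl2, an OAS relative that helps RNA sensing, was the member of its family that was expressed. It read 4.69, 9.49 and 7.06 in control and 262, 239 and 178 in siControl, and its log2 fold change was 4.999 ± 0.46 (adjusted p = 5.19e-26). Among the RNA sensors, Ddx58 rose from 149, 168 and 149 to 577, 418 and 437, and the log2 fold change was 1.62 ± 0.17 (adjusted p = 1.67e-20). The groups did not overlap. Ifih1 was at 205, 153 and 192 in control and at 499, 222 and 357 in siControl. All of its siControl values were above its control values, but the log2 fold change of 0.98 ± 0.31 stayed just under the fold minimum (adjusted p = 0.005). Dhx58, the regulatory member of the sensor family, was not called (0.33 ± 0.89).

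Of the 12 antiviral effectors 7 rose. Rsad2, which encodes viperin, a maker of a chain-terminating nucleotide, had no count in the 3 control and 3 CK666 libraries and read 189, 19.4 and 29.0 in siControl. Against a floor of 3 counts per control library its siControl mean, which replicate 1 raises, was at least 27.3-fold higher (adjusted p = 1.78e-09). Zbp1, a sensor of left-handed nucleic acids that can start cell death, also had no count in control and read 12.5, 56.9 and 43.0 in siControl, at least 12.95-fold higher (adjusted p = 4.26e-08). Replicate 1 was the highest siControl library for Rsad2 and the lowest for Zbp1. Bst2, or tetherin, which holds budding virions at the cell surface, went from 88.2, 104 and 102 to 373, 1223 and 528, and its log2 fold change was 2.85 ± 0.37 (adjusted p = 2e-13). Xaf1, an antagonist of an apoptosis inhibitor, rose by 4.10, Ifi27 by 2.23, Ifi35 by 2.10 and Rtp4 by 1.70 on the log2 scale. Eif2ak2, the kinase PKR that stops translation on double-stranded RNA, was abundant in both groups, at 832, 1027 and 945 in control and at 1436, 880.3 and 719 in siControl. Its groups overlapped and its log2 fold change was 0.12 ± 0.23 (95% interval -0.34 to 0.57). Trim25, the ubiquitin ligase of RIG-I, had a log2 fold change of 0.34 ± 0.17 (adjusted p = 0.075).

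All 3 guanylate-binding proteins, GTPases that attack membranes around microbes, rose. Gbp2 read 11.3, 17.1 and 10.1 in control and 226, 181 and 219 in siControl, and its log2 fold change was 4.03 ± 0.29 (adjusted p = 5.33e-41). Its 3 siControl libraries were close to each other, unlike those of Gbp7 (139, 40.1 and 64.6). Gbp7 had 2 counts in all control libraries and 266 in siControl, a depth-corrected ratio of 136 with an exact 95% interval of 37.3 to 1130 that covers counting error only. Gbp3 rose by 3.43. Of the ADP-ribosylation genes, Parp14, a transferase of ADP-ribose, went from 57.2, 61.7 and 61.6 to 450.1, 191 and 219.9, and its log2 fold change was 2.26 ± 0.31 (adjusted p = 7.17e-12). Parp9 rose by 1.79, whereas its partner, the ubiquitin ligase Dtx3l, had 0.76 ± 0.32 (adjusted p = 0.037). The exons of these 2 genes overlap on opposite strands, and 8.54% of the 31-base words of Parp9 and 7.52% of those of Dtx3l occur in the other gene, so some reads of one can be counted for the other.

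Of the 6 antigen presentation genes 5 rose. Psmb8, a catalytic subunit of the immunoproteasome, read 28.1, 26.6 and 16.1 in control and 833, 2174 and 1312 in siControl, and its log2 fold change was 5.92 ± 0.35 (adjusted p = 4.32e-62). Psmb9, another such subunit, went from 20.6, 19.0 and 25.2 to 336, 1287 and 505, and its log2 fold change was 5.04 ± 0.41 (adjusted p = 4.51e-32). Neither gene's siControl libraries came near those of control. Tap1, a subunit of the transporter that carries peptides into the endoplasmic reticulum, was already at 629, 572 and 617 in control and reached 1220.1, 1910.5 and 1321, and its log2 fold change was 1.29 ± 0.22 (adjusted p = 4.06e-08). The MHC class I heavy chain H2-K1 rose from 300.2, 271 and 281 to 1129, 3893 and 1654, by 2.97 ± 0.34 (adjusted p = 1.44e-16), and H2-D1 from 2076, 1729.7 and 1836 to 2968, 5433 and 4168, by 1.15 ± 0.20 (adjusted p = 4.92e-08). Of the 31-base words of H2-K1 22.8% and of H2-D1 26.9% occur in other genes, so reads may be shared among the class I genes. Without siControl replicate 2 the log2 fold change of H2-D1 was 0.92 and it was no longer called. This was the one member call of the 25 that was lost in any alternative run. B2m, at 8772, 8385 and 8139 in control and at 14541, 13573 and 16811 in siControl, had groups that did not overlap and a log2 fold change of 0.83 ± 0.11, past the adjusted p (5.74e-12) but under the fold minimum.

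An ISRE core in the window was as frequent among called genes as among the others. Of the 14 tested genes with a core 10 were called higher, with a median log2 fold change of 2.92, and of the 14 tested genes with a window and no core 10 were called higher, with a median of 2.18. Psmb8, Psmb9, Tap1, H2-K1, H2-D1, Irf1 and Irf7 were among those without, and of the antigen presentation genes B2m alone had a core.

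The 3 siControl libraries differed among themselves more than the control libraries did. Over the 19 members with a mean of at least 50 in both control and siControl, the median ratio of the highest to the lowest library was 1.999 in siControl, 1.62 in CK666, 1.43 in siArp4+CK666, 1.17 in control, 1.16 in CytoD and 1.21 in siArp4. The order of the libraries differed between the roles. Among 34 members with a mean of at least 10, replicate 1 was highest for 19, which held all members so counted of the IFIT family, the RNA sensors, the ADP-ribosylation genes and the guanylate-binding proteins. Replicate 2 was highest for 13, with 5 of the 6 antigen presentation genes and 3 of the 4 transcription factors among them. Replicate 3 was highest for 2. Over 13022 genes at the same level the shares were 41.9, 44.2 and 13.8%. Rsad2 at 189, 19.4 and 29.0 and Psmb9 at 336, 1287 and 505 show both orders. Replicate 2 had the lowest size factor of all libraries and 1.301% mitochondrial counts, against 2.655 and 2.366% in the other siControl libraries, and what these differences contributed was not tested.

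**Figure D3:**
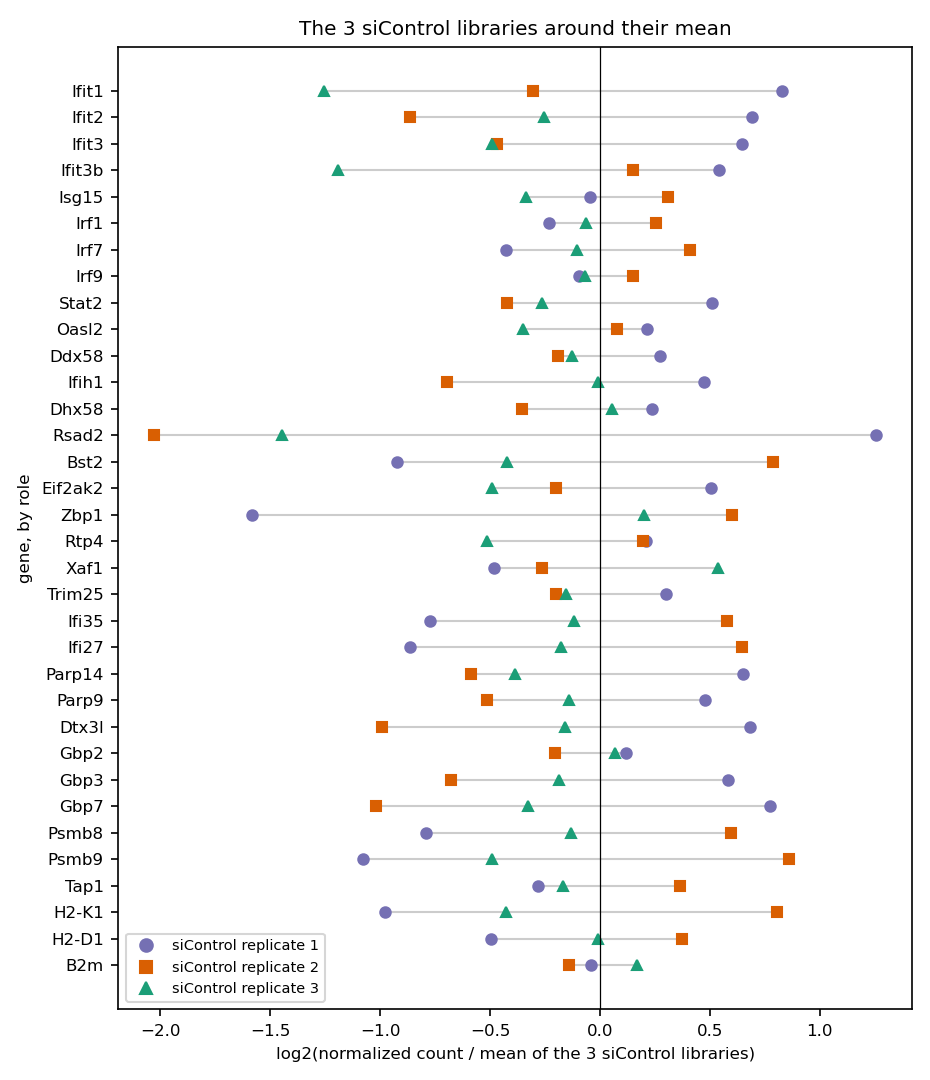
For 34 genes with a mean of at least 10 normalized counts, the log2 ratio of each siControl library to the mean of the 3 siControl libraries. Replicate 1 (circles) lies to the right for the IFIT, sensor, ADP-ribosylation and GBP genes, replicate 2 (squares) for 5 of the 6 antigen presentation genes.

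The higher levels were not limited to siControl. For 14 of the 41 members every one of the 9 transfected libraries was above every one of the 9 untransfected libraries, CytoD included, and for 0 the reverse held. Among the 35 tested members that is 40%, against 5.18% of 14491 genes tested. The 14 were Ifit1, Ifit3, Isg15, Irf1, Oasl2, Rsad2, Zbp1, Ifi35, Parp14, Gbp2, Gbp3, Gbp7, Psmb9 and H2-K1. Irf1 may serve as an example, with 164 to 573 in the untransfected and 1837 to 2597 in the transfected libraries, and Oasl2 with 1.89 to 32.2 and 172 to 283. The sum of the 41 genes was 16026 to 16475 normalized counts in control, 18573 to 22695 in CK666, 23999 to 25182 in CytoD, 33676 to 41254 in siControl and 31750 to 32900.5 in siArp4, a sum that B2m dominates. With siArp4+CK666 it was 33722 to 41195.

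Genes of the pathway outside the set were taken from lists and are given by their counts in siControl against control. Of 16 interferons, receptors and kinases 1 was called higher, Ifngr2 (1.08), a chain of the interferon gamma receptor, and 0 lower. Ifnb1, Ifna4, Ifna2, Ifng, Ifnl2 and Ifnl3, the interferon genes of that list, had no count in any of the 18 libraries. Ifnar1 (0.06, adjusted p = 0.772) and Ifnar2 (0.45, adjusted p = 0.0134), the chains of the type I receptor, were not called. Of 15 sensing adaptors and upstream factors 0 rose and 2 fell, the DNA sensor Cgas (-1.28) and the ubiquitin ligase Traf6 (-1.08). Of 6 feedback inhibitors Socs1, which blocks JAK kinases, rose by 1.498, and Ptpn11 (-1.24) and Pias1 fell. Of 52 other interferon-stimulated genes 19 rose and 1, Slfn9, fell. The largest estimates were those of Iigp1, a GTPase that attacks parasite vacuoles (0.938, 0 and 0 in control, 119, 25.9 and 58.0 in siControl), and Oas1c (0, 0.949 and 0 in control, 5.01, 21.97 and 12.2 in siControl), both with about 1 control count, so no fold is given. Of 17 other antigen presentation genes 10 rose and 0 fell, led by the immunoproteasome subunit Psmb10 (4.05) and the proteasome activator Psme2 (2.81).

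Markers of other cells were followed beside these counts. Of 11 markers of macrophages and other blood cells 1, Fcer1g, was called higher in siControl (0, 0.949 and 0 in control, 4.18, 18.1 and 6.55 in siControl). The summed level of the list was 219 to 281 in control and 156 to 406 in siControl, and Ptprc, Adgre1, Itgam and Cd3e had no count in either group. Of 7 MHC class II genes H2-DMa, whose exons overlap those of the abundant Brd2, was called higher (23.5, 15.2 and 13.1 in control, 28.4, 93.1 and 59.9 in siControl), the list summed to 75.9 to 154 and 119 to 293, and H2-Aa had no count in either group. Of 5 endothelial markers 0 were called, but 1 alone had an adjusted p, and Cdh5 and Emcn had no count in any library. An adjusted p was given for 5 of the 11 blood cell markers and 4 of the 7 MHC class II genes. Of 11 MSC markers 2 were called higher and 2 lower, and the list summed to 127054 to 133660 in control and 93229 to 136438 in siControl.

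CytoD against control compares untransfected cells, and asks how the capping drug changed their RNA. Of the 41 genes 10 were called higher and 0 lower, where 4.8% of all genes tested were called higher and 4.32% lower. Beside the 0 called lower by DESeq2, 0 had an unadjusted p under 0.05 in that direction, and edgeR called 0. Under scaling by total counts the higher share of all calls went from 52.7 to 63.8%. There were 30 members with an adjusted p, 29 with an estimate above 0, and their median log2 fold change was 0.80, against 0.01 over all genes. In 22 members every CytoD library was above every control library, against 29.1% of all genes tested. Without CytoD replicate 1 the count was 6, and Ifit3, Ifit3b, Xaf1 and Parp9 were no longer called. The call of Dtx3l was lost without CytoD replicate 2 (log2 fold change 0.95) and without control replicate 2 (0.96), and that of Ifit3b without any 1 of the CytoD libraries.

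Immunoproteasome subunits, Gbp2 and Irf7 were among the genes that rose with CytoD. Gbp2 read 83.1, 73.7 and 92.5 in CytoD, against 11.3, 17.1 and 10.1 in control, and its log2 fold change was 2.69 ± 0.44 (adjusted p = 7.54e-09). Psmb8 was at 97.6, 102 and 119 (log2 fold change 2.16 ± 0.31, adjusted p = 8.39e-11) and Psmb9 at 98.6, 87.0 and 111 (2.19 ± 0.35, adjusted p = 4.58e-09). None of these values overlapped the control libraries, and all stayed below every siControl library. Irf7 was at 37.4, 57.7 and 54.3, and its log2 fold change was 2.23 ± 0.49 (adjusted p = 3.57e-05). All 3 ADP-ribosylation genes rose: Parp14 to 170.3, 184 and 159 (1.504 ± 0.25, adjusted p = 3.12e-08), and Parp9 and Dtx3l by 1.12 and 1.03. In the IFIT family Ifit3 was at 153, 130.4 and 92.5 (1.10 ± 0.28, adjusted p = 0.000424) and Ifit3b rose by 2.70, while Ifit1, at 9.34, 32.1 and 23.1, was not called (adjusted p = 0.0805). Xaf1 rose by 3.36.

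A further 8 members passed the adjusted p in CytoD but not the fold minimum, which left 18 of the tested members past the adjusted p and 0 below 0. They held the rest of antigen presentation. Tap1 was at 914, 1004 and 938 (log2 fold change 0.65 ± 0.11), H2-K1 at 435, 480.2 and 509 (0.74 ± 0.20), H2-D1 at 2586, 2558 and 2770.2 (0.48 ± 0.12) and B2m at 13021, 13239 and 14122 (0.67 ± 0.11), in each case with every CytoD library above every control library. Ddx58 was at 314, 291 and 327 (0.99 ± 0.19, just under the minimum), Irf9 at 208, 292 and 275, Stat2 at 548, 529 and 483, and Ifi35 had 0.67 ± 0.22. Irf1, which was called higher in siControl, was at 511, 573 and 529.9 in CytoD. These values were above every control library but not called (0.25 ± 0.22, adjusted p = 0.402), and Eif2ak2, at 1039, 941 and 954, overlapped with control. Isg15 (13.5, 12.3 and 5.03), Oasl2 (12.5, 9.45 and 32.2), Bst2 (151, 155 and 175) and Ifih1 (336, 361 and 287, adjusted p = 0.0104) were not called. Rsad2, with 4.15, 6.62 and 2.01, Zbp1, with 0, 0.945 and 2.01, and Usp18, with 0, 1.89 and 0, had too few counts for an adjusted p.

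Outside the set, 5 of 52 other interferon-stimulated genes and 3 of 17 other antigen presentation genes rose with CytoD and 0 of either fell. The latter were Tapbp, H2-T23 and Nlrc5, the activator of MHC class I genes (1.84), which is singled out after its values were seen. The macrophage list summed to 348 to 379 in CytoD and 219 to 281 in control, with Cd68 and Lyz2 called higher and Ptprc at 0 in all libraries of both groups. Of the MHC class II list H2-DMa was called higher, and the sums were 168 to 240.3 in CytoD and 75.9 to 154 in control. The MSC list summed to 185167 to 194807 in CytoD and 127054 to 133660 in control, with 1 marker called higher and 1 lower. The part of these lists in the result was not tested.

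CK666 against control gave fewer calls. Of the 41 genes 3 were called higher and 0 lower, where 4.89% of all genes tested were called higher and 6.06% lower. Beside the 0 called lower by DESeq2, 7 had an unadjusted p under 0.05 in that direction, and edgeR called 0. Outside the set, of 52 other interferon-stimulated genes 35 were tested, and 0 were called higher and 6 lower. Of 17 other antigen presentation genes 1 was called higher and 0 lower. The median log2 fold change of the 31 tested members was 0.07, and 16 estimates were above 0 and 15 below. The largest was that of Rtp4, a chaperone of receptors that also acts against viruses, which went from 21.6, 31.3 and 28.3 to 143, 117 and 117, and its log2 fold change was 2.23 ± 0.31 (adjusted p = 9.49e-12). It held in every alternative run. A predicted gene that overlaps Rtp4 and shares 12.5% of its 31-base words had a mean of 166, so that part of these reads may belong to it. Bst2 read 312, 155 and 199 (1.19 ± 0.27, adjusted p = 4.69e-05) and Psmb9 62.3, 48.3 and 30.5 (1.14 ± 0.36, adjusted p = 0.00569). Both were above every control library and highest in replicate 1, and without that library neither was called. The Psmb9 call was also lost with edgeR and when any 1 of 7 other libraries of the 9 in the fit was left out. The MSC markers were lower beside these calls. All 9 that were tested had estimates below 0, 7 passed the adjusted p, 2 were called lower, and the list summed to 63502 to 71829 in CK666 and 127054 to 133660 in control. Of the macrophage list Cd14 was called lower, and 0 MHC class II or endothelial markers were called. In those lists 4 of 7 and 1 of 5 genes had an adjusted p. The part of these lists in the result was not tested.

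The estimates for CK666 differed in sign between the groups of genes, mostly within the fold minimum. All 6 antigen presentation genes had every CK666 library above every control library, against 23.3% of all genes tested, and 5 passed the adjusted p. H2-K1 was at 715, 415 and 537 (0.98 ± 0.20, just under the minimum), H2-D1 at 3108, 2432 and 2688 (0.56 ± 0.12), B2m at 13808, 10734 and 11637 (0.53 ± 0.11), Tap1 at 847, 729.9 and 775 (0.39 ± 0.11) and Psmb8, the one that did not pass, at 38.7, 32.5 and 31.4 (adjusted p = 0.195). On the other side were 4 genes past the adjusted p with lower levels. Ddx58 was at 62.3, 74.9 and 98.7 (-0.97 ± 0.20), Irf1 at 231, 164 and 340.0 (-0.87 ± 0.22), Eif2ak2 at 416, 641 and 539 (-0.80 ± 0.16), and Ifit2 had -0.40 ± 0.11. These 4 had all CK666 libraries below all control libraries. So had 9 of the 31 tested members in all, against 24% of all genes tested. Parp14, at 21.7, 43.3 and 36.8, and Gbp2, at 6.61, 0.985 and 7.18, were below control in every library but did not pass (adjusted p = 0.0126 and 0.0414). The remaining lead genes overlapped with control or did not pass: Ifit1 at 10.4, 13.8 and 23.3, Ifit3 at 51.9, 37.4 and 44.0, Isg15 at 4.72, 4.93 and 5.38, Irf7 at 6.61, 12.8 and 6.28, Irf9 at 179, 164 and 205, Stat2 at 175, 275 and 336, Oasl2 at 1.89, 8.87 and 11.7 and Ifih1 at 85.9, 203 and 115. Usp18 (0.944, 0 and 1.79) and Zbp1 (0, 2.96 and 0) were near the floor.

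**Figure D4:**
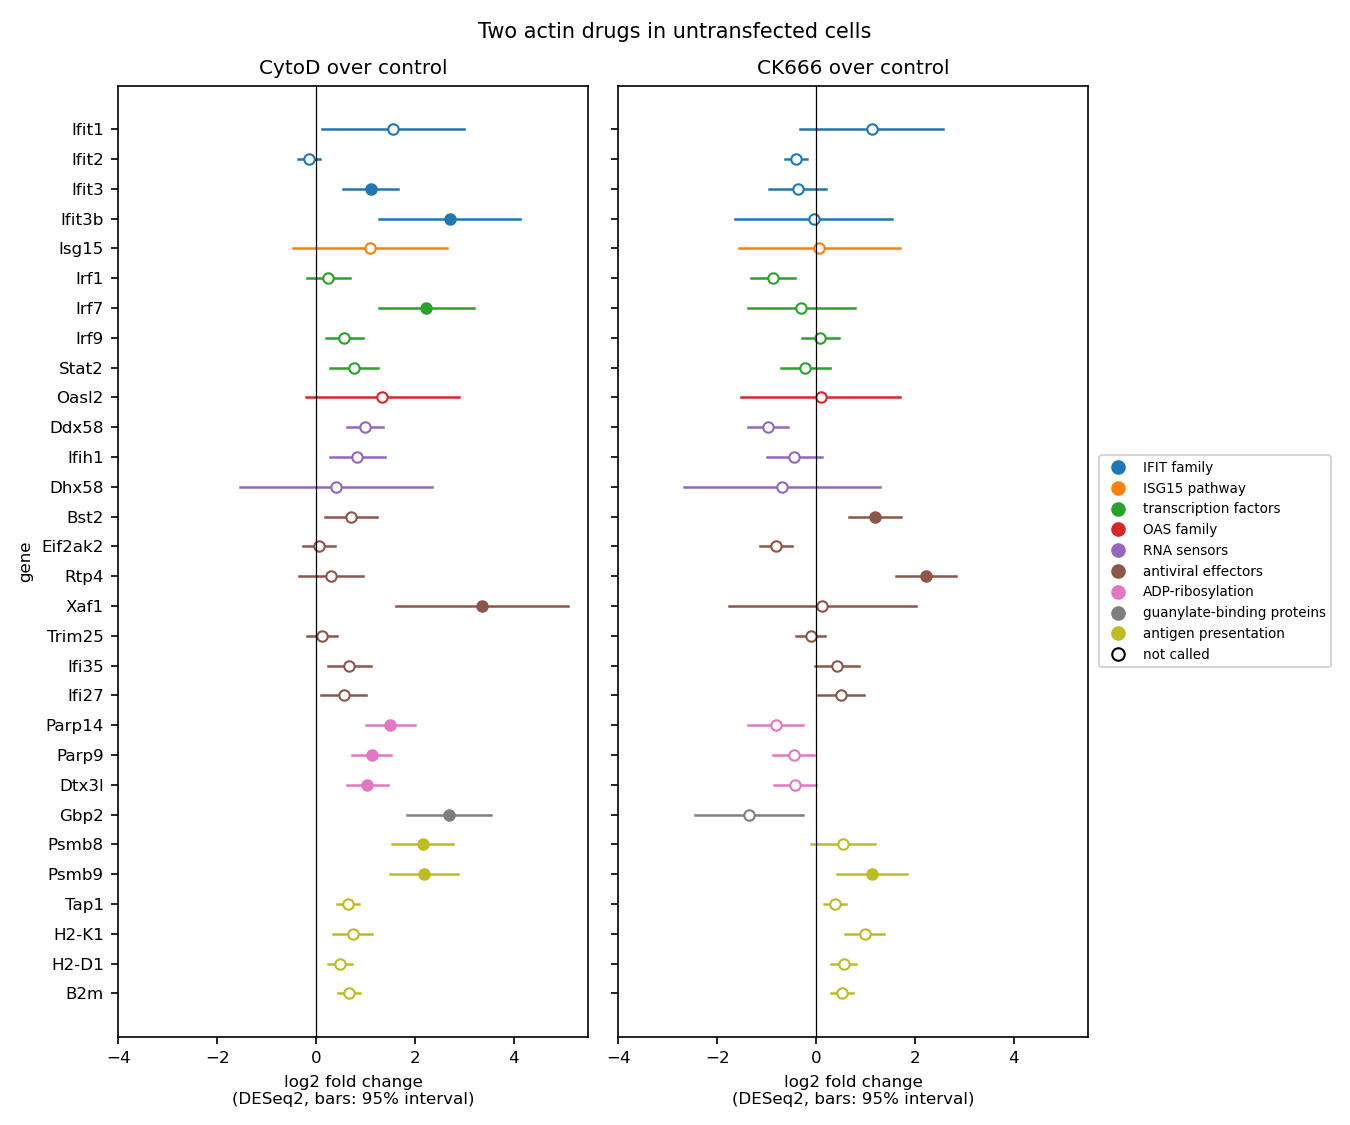
Log2 fold change of CytoD over control (left) and CK666 over control (right) for the 30 genes with an adjusted p in both (DESeq2, 3 libraries a group, bars are 95% intervals, filled symbols were called); the comparisons share the control libraries. On the left all estimates but that of Ifit2 are above 0, on the right the ADP-ribosylation genes and Gbp2 lie below 0 and the antigen presentation genes above it.

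The drugs were also compared directly, in the same fit and without the control libraries entering the difference. CK666 was called higher than CytoD for 1 member and lower for 13, where 5.08% of all genes tested were called higher and 6.74% lower. The median log2 fold change, CK666 over CytoD, of 32 tested members was -1.07, against -0.03 over all genes. Gbp2 (-4.04 ± 0.52, adjusted p = 1.08e-13) and Irf7 (-2.53 ± 0.50, adjusted p = 3.71e-06) were the largest among genes with a mean of at least 20. All 3 ADP-ribosylation genes were lower, between -2.32 for Parp14 and -1.45 for Dtx3l, as were the sensors Ddx58 (-1.96 ± 0.20) and Ifih1 (-1.27 ± 0.28). The member that was higher with CK666 was Rtp4 (1.92 ± 0.30, adjusted p = 2.23e-09). Of the 6 antigen presentation genes 2 were called lower, Psmb8 (mean 34.2 in CK666, 106 in CytoD) and Psmb9 (47.0 and 98.7). The Psmb9 call was lost with edgeR (adjusted p = 0.0129), with the replicate block and in several runs with 1 library left out. For Tap1 (-0.26 ± 0.11, 95% interval -0.48 to -0.05), H2-K1 (0.25 ± 0.20, -0.14 to 0.63), H2-D1 (0.08 ± 0.12, -0.17 to 0.32) and B2m (-0.14 ± 0.11, -0.36 to 0.08) the drugs did not differ past the threshold, and the intervals leave room only for differences below the fold minimum. Of 9 tested MSC markers 6 were called lower with CK666 and 0 higher. That list summed to 63502 to 71829 in CK666 and 185167 to 194807 in CytoD. Of 5 tested markers of macrophages and other blood cells 2 were called lower and 0 higher. The part of these lists in the result was not tested.

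The siArp4 comparison sets cells given the Arp4 siRNA against cells given the control siRNA. The study's methods list a single sequence for each, so loss of Arp4 cannot be told apart from other effects of the sequences. Of the 41 genes 1 was called higher and 6 lower against siControl, where 6.69% of all genes tested were called higher and 9.49% lower. The median log2 fold change of 36 tested members was -0.15, against -0.05 over all genes. The falls were found in antigen presentation (3 of 6 genes) and in Irf7, Ifit2 and Bst2, and both groups had been transfected. The mitochondrial share was 2.669 to 3.259% in siArp4 and 2.863 to 3.36% in siArp4+CK666, above every siControl library (1.301 to 2.655%). Of the MSC markers 2 were called higher and 1 lower in siArp4, and the list summed to 121643 to 132657 there and 93229 to 136438 in siControl. Of the other marker lists H2-DMb1 was the one gene called, with a log2 fold change of -1.31. An adjusted p was given for 5 of 7 MHC class II, 4 of 11 blood cell and 1 of 5 endothelial markers. The part of these values in the knockdown comparisons was not tested.

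Psmb8 and Tap1 had the largest falls. Psmb8 read 833, 2174 and 1312 in siControl and 69.1, 117 and 71.9 in siArp4, and its log2 fold change was -4.08 ± 0.37 (adjusted p = 2.61e-26). Tap1 went from 1220.1, 1910.5 and 1321 to 117, 148 and 172, and its log2 fold change was -3.37 ± 0.30 (adjusted p = 9.21e-27). The levels differ in where they ended. Psmb8 in siArp4 stayed above the untransfected control (28.1, 26.6 and 16.1), while Tap1 fell below every untransfected library, the lowest of which held 572. Psmb9, which shares its promoter region with Tap1, fell from 336, 1287 and 505 to 268, 283 and 257, at a log2 fold change of -1.41 ± 0.43 (adjusted p = 0.00435), and still stood above every untransfected library. Without siControl replicate 2 the log2 fold change of Psmb9 was -0.69 and that of Bst2 -0.87, and neither was called; edgeR did not call them either (adjusted p = 0.03 and 0.0211). Exons of Tap1 and Psmb9 overlap on opposite strands and the libraries are unstranded, but the overlap is small, with 3.26% of the 31-base words of Tap1 and 4.79% of those of Psmb9 shared between them.

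**Figure D5:**
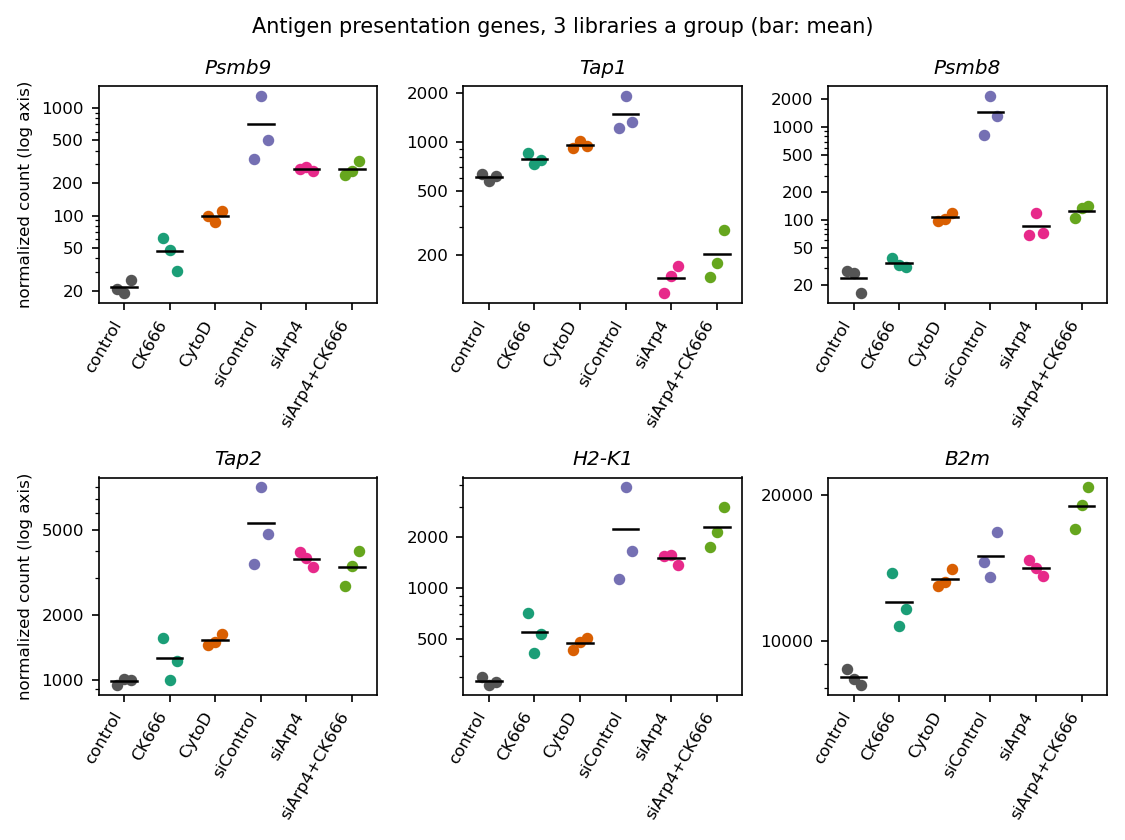
Normalized counts (log axis) of Psmb9, Tap1, Psmb8, Tap2, H2-K1 and B2m in each library, 3 a group, with the group mean as a bar. In the siArp4 groups Tap1 lies below all untransfected libraries, Psmb8 falls to about the CytoD level, and H2-K1 and B2m lie within the siControl range or above it.

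Neighbours of these genes on chromosome 17 were looked up after the values of Tap1 were seen. Tap2, the partner of Tap1, which begins 16.0 kb away on the same strand, had -0.58 (adjusted p = 0.123) and was not called. Brd2, at -64.9 kb from the Tap1 start, had 0.20 (adjusted p = 0.0974) and H2-DMb1, at -34.5 kb, -1.31 (adjusted p = 0.00614), called lower. Among the class I molecules themselves, H2-K1 was at 1547, 1569 and 1370.1 (-0.59 ± 0.41, adjusted p = 0.275), H2-D1 at 5444, 5408 and 4917 (0.31 ± 0.25, adjusted p = 0.358) and B2m at 14680.4, 14153 and 13624 (-0.11 ± 0.15, adjusted p = 0.618), none of them called. Of the 17 other antigen presentation genes 5 fell and 0 rose. They were Psmb10 (-2.40), Psme1 (-1.87), H2-Q4, Canx and Nlrc5 (-2.48, adjusted p = 5.8e-15), which read 117, 115 and 160.0 in siControl and 22.5, 26.5 and 22.6 in siArp4. Psmb10 and Nlrc5 were named after their values were seen in this comparison.

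Irf7 fell from 108, 193 and 135 to 32.0, 37.6 and 32.9, and its log2 fold change was -2.10 ± 0.34 (adjusted p = 1.65e-08), and Ifit2 from 1054, 358 and 546 to 129.6, 165 and 196 (-2.03 ± 0.40, adjusted p = 3.29e-06). For both genes the groups did not overlap. Ifit2 in siArp4 was also below every untransfected library. Bst2 fell to 264, 262 and 237 (-1.49 ± 0.41, adjusted p = 0.00166). The gene that rose was Isg15, at 105, 138 and 101 (1.34 ± 0.28, adjusted p = 1.1e-05), above every siControl library. Gbp2, at 344, 387 and 381, passed the adjusted p (0.000654) at a log2 fold change of 0.80 ± 0.21.

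The remaining lead genes were not called. Ifit1 was at 91.6, 137 and 96.5 (0.24 ± 0.48), Ifit3 at 226, 345 and 253 (0.29 ± 0.36) and Rsad2 at 69.1, 77.4 and 106 (0.05 ± 0.70), in each case inside the range of the siControl libraries or just at its edge. Without siControl replicate 1, the highest siControl library for each of these genes, Ifit3b (1.52), Rsad2 (1.75) and Dtx3l (1.05) were called higher, and the count went from 1 to 4. Irf1 was at 2506, 2359.6 and 2394, Oasl2 at 283, 244 and 219.8, Ddx58 at 401, 424 and 356 and Ifih1 at 473, 468 and 612, with adjusted p-values (DESeq2) between 0.227 and 0.778. Eif2ak2 read 1018, 948 and 1145, Parp14 194, 240.0 and 296, Zbp1 78.6, 76.3 and 57.5 and Usp18 17.3, 47.6 and 13.4. Irf9, at 166, 205 and 191 (-0.49 ± 0.18, adjusted p = 0.0247), and Stat2, at 268, 311 and 372 (-0.57 ± 0.30, adjusted p = 0.138), were not called. Of the pathway upstream, Sting1, the adaptor of DNA sensing (-1.54), and Tyk2, a kinase of the type I receptor (-1.37), fell, and the adaptor Ticam1 rose (1.09), all named after their values were seen.

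In siArp4+CK666 against siControl, again 1 member was called higher and 6 lower, where 8.06% of all genes tested were called higher and 12.4% lower. Irf7, at 9.47, 14.5 and 8.67, had the largest fall (-3.72 ± 0.40, adjusted p = 1.21e-18), close to untransfected control cells (14.1, 10.4 and 7.06). Psmb8 was at 104, 134 and 139.8 (-3.51 ± 0.37), Tap1 at 146, 179.8 and 285 (-2.87 ± 0.30), Psmb9 at 236, 260.0 and 323 (-1.37 ± 0.43) and Ifit2 at 286, 232 and 200.4 (-1.46 ± 0.40). Of these, Tap1 and Ifit2 stood below all untransfected libraries, and Psmb8 and Psmb9 did not. Ifi27 was called lower too (-1.19 ± 0.36, adjusted p = 0.00396). Isg15 was at 104, 119.9 and 124 (1.38 ± 0.28, adjusted p = 4.54e-06), above siControl in every library. Without siArp4+CK666 replicate 2 the count of falls was 3, with Ifit2, Ifi27 and Psmb9 lost, and the edgeR test lost the same 3. Without siControl replicate 2 Psmb9 was at -0.65 and Ifi27 at -0.73, and without siControl replicate 1 Ifit2 was at -0.92, so that each call ended. Without siControl replicate 1 the count of rises was 4, with Ifit1 (1.77), Rsad2 (2.59) and Dtx3l (1.40) added. The macrophage list summed to 156 to 406 in siControl and 147 to 407 in siArp4+CK666. Of its 11 genes 4 had an adjusted p and 0 were called. The endothelial list summed to 5.01 to 6.55 in siControl and 21.0 to 26.1 in siArp4+CK666, with Kdr called higher (2.67) and Cdh5 and Emcn at 0. H2-DMb1 of the MHC class II list was called lower (-2.31). Of the MSC markers 4 were called lower and 6 passed the adjusted p below 0, and that list summed to 93229 to 136438 in siControl and 66515 to 74142 in siArp4+CK666. The part of these lists in the result was not tested.

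CK666 was also compared within the knockdown. Against siArp4 alone 0 members were called higher and 2 lower, where 1.63% of all genes tested were called higher and 4.12% lower, and the median log2 fold change of 36 tested members was 0.04. Beside the 0 called higher by DESeq2, 1 had an unadjusted p under 0.05 in that direction, and edgeR called 0. Gbp2 went from 344, 387 and 381 to 139, 199 and 161 (-1.14 ± 0.21, adjusted p = 1.6e-06) and Irf7 from 32.0, 37.6 and 32.9 to 9.47, 14.5 and 8.67 (-1.62 ± 0.42, adjusted p = 0.00178). Neither pair of groups overlapped. The Irf7 call was lost with edgeR (adjusted p = 0.0142) and when any 1 of 5 libraries of the 9 in the fit was left out. Outside the set Nlrc5 rose (1.85, adjusted p = 5.91e-08), again named after its values were seen. Of 17 other antigen presentation genes 1 was called higher and 0 lower. Of 52 other interferon-stimulated genes 2 were called higher and 4 lower. All 6 antigen presentation genes had estimates above 0, of which none was called, B2m coming closest at 17065, 19098 and 20743 (0.44 ± 0.15, adjusted p = 0.0216). H2-K1 was at 1751, 2139 and 2989 and H2-D1 at 4469, 5452 and 6802. Other lead genes were not called: Ifit1 read 190.5, 142 and 221, Ifit3 243, 318 and 300.1, Irf1 2230.1, 2399 and 2597, Irf9 137, 134 and 151, Stat2 419, 351 and 311 and Oasl2 257, 189 and 172. In the same cells Ddx58 was at 248, 239 and 256 (-0.65 ± 0.20, adjusted p = 0.0107), below every siArp4 library, Ifih1 at 503, 460.1 and 324, Eif2ak2 at 754, 678 and 529.8, Parp14 at 403, 362 and 299 and Bst2 at 293, 388 and 539.6. Rsad2 read 165, 168 and 106, Zbp1 24.2, 50.3 and 54.2 and Usp18 7.37, 8.70 and 14.1. Of 9 tested MSC markers 3 were called lower and 0 higher. That list summed to 66515 to 74142 in siArp4+CK666 and 121643 to 132657 in siArp4. Among the tested markers, 5 of MHC class II, 4 of blood cells and 1 endothelial, 0 were called. The part of these lists in the result was not tested.

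Whether CK666 acted differently in knockdown and untransfected cells was tested as an interaction over all 18 libraries. With no siControl group given CK666, loss of Arp4, transfection and the set of cultures cannot be told apart in this contrast. Of the 41 members 0 were called higher and 1 lower, where 1.9% of all genes tested were called higher and 2.52% lower, and the median of the 35 tested members was -0.09. Beside the 0 called higher by DESeq2, 3 had an unadjusted p under 0.05 in that direction, and edgeR called 0. Under scaling by total counts the higher share of all calls in this contrast went from 43 to 32.7%. The member was Rtp4, with 57.0, 94.0 and 52.4 under siArp4 alone, 84.2, 92.8 and 141 once CK666 was added, against 21.6, 31.3 and 28.3 in control and 143, 117 and 117 in CK666. In knockdown cells CK666 gave a log2 fold change of 0.66 ± 0.36, with groups that overlapped, and in untransfected cells 2.23 ± 0.31. The difference between the effects was -1.57 ± 0.46 (adjusted p = 0.00809), and it was lost with edgeR (adjusted p = 0.0321) and when any 1 of 11 libraries of the 18 was left out. In siControl Rtp4 read 102, 101 and 61.8.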

How the data were processed

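RNA-seq of mouse marrow MSC was analysed in 18 libraries, 3 for each of 6 groups taken from the labels. The values deposited by the authors are estimated counts per gene, made from unstranded paired-end reads of total RNA with Salmon 1.2.1 under default parameters and GENCODE annotation on GRCm38. How transcripts were summed to genes is not given in the sources used here. Rounding to whole counts altered no library's sum by more than 277 counts. Of 54347 gene identifiers 54094 matched the reference annotation by which symbols, lengths and overlaps were taken.

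Differential expression used DESeq2 1.42.0 Wald tests in R 4.3.3, with Benjamini-Hochberg adjustment over all genes tested, in a fit of 9 untransfected libraries, a fit of 9 transfected libraries, and, for siControl against control and the interaction, a fit of all 18. Genes that DESeq2 gave no adjusted p stayed without one. Alternatives were edgeR 4.0.16 quasi-likelihood tests, TMM size factors, a filter on low counts, no fold minimum, other sets of libraries in the fit, a replicate block, each library left out, and scaling by total counts, an alternative chosen after seeing the data. The fits were tested on simulated data. Counting intervals and floors cover counting error only.

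The 41 members and all gene lists were chosen with earlier results of these data known. Values in every library were given for lead genes of each role and for the 2 largest called changes of each comparison at a mean of at least 20. The values of 1 gene of the pathway lists are not reported here. Promoter windows came from RefSeq, GRCm38.p6. Figures were drawn with matplotlib 3.10.9.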

Additional observations from a re-analysis of the deposited data

Results flagged for a closer look

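The response of Rtp4 to CK666 differed between knockdown and untransfected cells in the interaction test over 18 libraries, with a difference in log2 fold change of -1.57 (adjusted p = 0.00809, DESeq2). CK666 libraries read 143, 117 and 117 normalized counts against 21.6, 31.3 and 28.3 in control, and siArp4+CK666 libraries 84.2, 92.8 and 141 against 57.0, 94.0 and 52.4 in siArp4. The call was lost with edgeR (adjusted p = 0.0321) and when any 1 of 11 of the 18 libraries was left out, where the difference ran from -1.69 to -1.27. Loss of Arp4 and transfection cannot be told apart here, because no siControl group received CK666.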

How the results depend on the processing

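In siControl against control 24 of the 25 member calls held in every alternative run, and the count was 25 to 26 with 1 library left out. Across the other comparisons the share of calls held in every run was 1 of 3 for CK666, 5 of 10 for CytoD, 10 of 14 for CK666 against CytoD, 5 of 7 for siArp4, 4 of 7 for siArp4+CK666 against siControl, 1 of 2 against siArp4 and 0 of 1 for the interaction. No called value changed sign in any run, and of the single-gene values 60 passed and 76 lost the threshold while 4781 kept their side. With no fold minimum the counts were 7 higher and 4 lower for CK666, 18 higher for CytoD and 2 higher for siArp4. With edgeR they were 3 lower for siArp4+CK666 against siControl, 1 lower against siArp4 and 0 for the interaction. With 1 library left out the counts ran from 1 to 4 higher and 0 to 2 lower for CK666, 6 to 11 higher for CytoD, 1 to 4 higher for siArp4, 1 to 4 higher and 3 to 6 lower for siArp4+CK666 against siControl, 1 to 2 lower against siArp4, and 0 to 1 in either direction for the interaction. The libraries behind the widest changes were CK666 replicate 1 (1 higher), CK666 replicate 3 (2 lower), CytoD replicate 1 (6 higher), siControl replicate 1 (4 higher in both knockdown comparisons) and siArp4+CK666 replicate 2 (3 lower). The causes were not tested. In no pair of groups did all same-numbered libraries deviate together past a correlation of 0.1, so the numbers were not taken as pairs. A fit with the replicate block left the interaction with 0 lower calls (Rtp4 adjusted p = 0.015), took Psmb9 below the threshold for CK666 (adjusted p = 0.0219), and moved no other count by over 1.5 times. Genes near the floor of 3 counts, such as Mx1 and Oas2, had too few counts to be compared, and why was not tested.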
